A study of Mus musculus with 9 samples.

Results

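The genes described here were chosen because their level in sorted mouse haematopoietic stem cells (HSCs) differed in animals given brain-region inhibition plus spermidine, while inhibition alone and control lay close together. Selection used group means of TPM, an abundance scaled for transcript length and library depth. A gene entered when its highest group mean was at least 10 TPM, when the mean of the inhibition libraries was 0.8 to 1.25 times that of the control libraries, and when the spermidine mean was at least 1.6 times both other means or at most 0.625 times both. Vomeronasal and olfactory receptor symbols were left out by their names (1177 symbols). The genes were thus selected on these TPM values. The rule found 77 genes of 19454 listed, 76 higher with spermidine and 1 lower. They are 4.425% of the 1740 genes that met the level requirement and whose inhibition and control means were alike. Since the values below chose the genes, the levels of these 77 genes in the 3 groups are a description, with no test.

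All mice were wild type, and bone marrow HSCs were the labelled cell type in all 9 libraries. The spermidine group (3 libraries) had chemogenetic inhibition of the brain regions mPFC and PAG together with a spermidine supplement. The inhibition group (3 libraries) had the inhibition without the supplement, and the control group (3 libraries) is labelled as control with no brain intervention named. Library names in the spermidine and inhibition groups carry AAV, a short form for a viral vector, and those in the control group carry Ctrl. No group had spermidine without inhibition, so a gene that stands apart here does so in animals that had both. The labels name no sort markers, sex, age, batch, or virus or drug given to controls, so silencing and its means of delivery cannot be told apart, and separate source animals within a group are not named either. The spread between libraries may therefore be technical. Each library was made from polyadenylated RNA of 1500 cells with 12 PCR cycles, and total estimated counts were 16096276 to 25360256 per library.

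Spermidine is a polyamine, a small positively charged molecule that binds nucleic acids, is made by animal cells and gut bacteria, and serves as the substrate for the hypusine modification of a translation factor. It is known for promoting autophagy. HSCs are the self-renewing cells from which blood lineages arise, and their state is held by transcription factors such as Meis1, by cytokine and Notch signalling, and by control of RNA processing and protein synthesis. The 76 higher genes included HSC transcription factors (Meis1, Hhex), a Notch receptor (Notch2), the survival kinase gene Pim1, the transcription regulator gene Tsc22d1, several RNA-processing genes of high abundance (Arglu1, Pan3, Clk1) and antigen-presentation genes (H2-DMa, H2-Eb1, Cd1d1).

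Some facts of the libraries move with the selection and are given before the values. Spermidine libraries had 10116 to 10149 genes above 1 TPM, inhibition libraries 9301 to 9347 and control libraries 9306 to 9321. The 10 most abundant genes took 14.1% to 14.9% of TPM in spermidine libraries, 17.4% to 18.4% in inhibition libraries and 16.6% to 17.1% in control libraries. Olfactory and vomeronasal receptor genes, which mark sensory neurons, summed to 388 to 400.0 TPM with spermidine, 172 to 178 TPM with inhibition and 206 to 213 TPM in control. HSC markers were uneven. Procr, a defining HSC surface marker, had 5.07, 4.81 and 5.28 TPM in spermidine libraries, 2.07, 2.52 and 2.04 TPM in inhibition libraries, and 0.14, 0.081 and 0.078 TPM in control libraries, so it was nearly absent from control. Hlf, an HSC transcription factor, averaged 6.84 TPM with spermidine, 3.42 TPM with inhibition and 0.50 TPM in control. Other HSC markers were highest in control: Slamf1 averaged 2.80 TPM with spermidine, 2.797 TPM with inhibition and 14.5 TPM in control, and Gata2 4.95, 2.69 and 15.99 TPM in the same order. The 18 HSC markers together summed to 896.7 to 910.8 TPM with spermidine, 758 to 791.6 TPM with inhibition and 576 to 583.8 TPM in control. Most of this sum was Ly6e and Cd48, so it says little about the other markers. Ly6e averaged 508.4 TPM with spermidine, 479.0 TPM with inhibition and 380.5 TPM in control, and Cd48 116.7, 126.1 and 99.67 TPM. The 15 neutrophil markers summed to 35290 to 35990 TPM with spermidine, 82620 to 83180 TPM with inhibition and 5575 to 5812 TPM in control. In bulk libraries, fewer cells of a type and less RNA per cell cannot be told apart. The part of these differences in the selected genes was not tested.

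Scaling set how many genes met the rule. Across the 1740 genes with inhibition close to control, the median ratio of TPM was 1.144 for spermidine over inhibition and 1.159 for spermidine over control. Of these genes, 1225 had a spermidine mean above both other means, 203 below both and 312 between them. After TPM were rescaled with trimmed-mean (TMM) factors, which set the bulk of genes equal between libraries, 16 genes met the rule as higher and 13 as lower, against 76 and 1 without rescaling. With TMM-scaled CPM (counts scaled to library size) in place of TPM, 13 met it as higher and 11 as lower. The 11 selected genes that kept 1.6-fold in both ratios on CPM included Xlr3b, Reg2, Odf3b, Serpini1, Tsc22d1, Flywch2, Pim1, Ipo11, Osbpl1a and Gm31218. All 11 also met the rule with rescaled TPM. Fold changes from edgeR below are on this TMM scale, and in all 76 higher genes those against inhibition are smaller than the TPM ratios beside them.

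**Figure D1:**
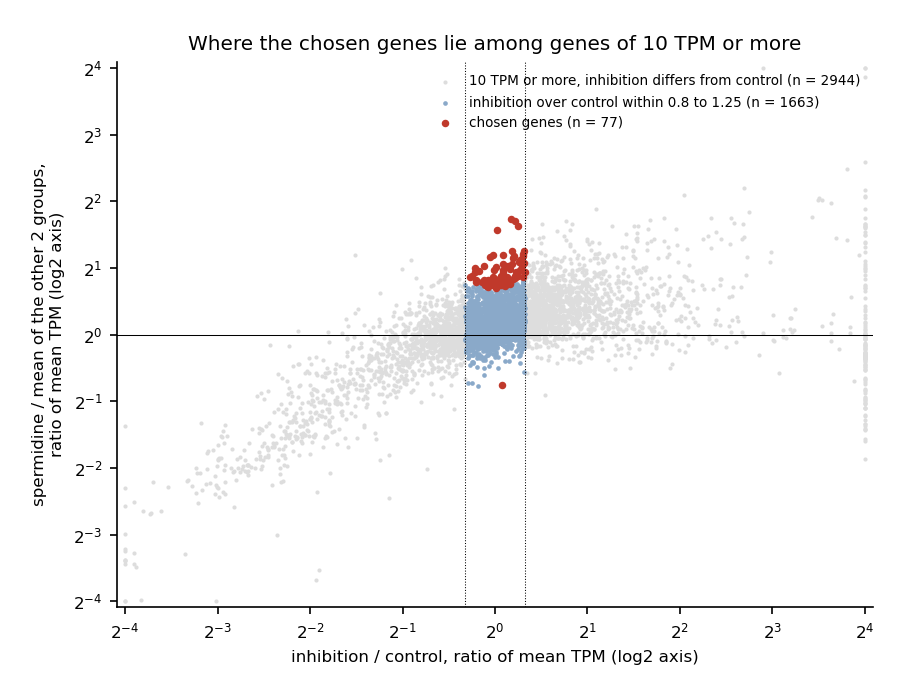
Genes with a group mean of 10 TPM or more (receptor symbols left out), placed by the ratio of inhibition to control (horizontal, log2 axis) and of spermidine to the mean of the other groups (vertical, log2 axis); dotted lines stand at 0.8 and 1.25, and ratios beyond 16-fold are drawn at the edge. The 76 higher genes form the upper rim of a cloud whose centre lies above 1, and Nt5dc2 is the red point below it.

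The 76 higher genes were mostly of moderate abundance. Their spermidine means ran from 10.18 to 821.9 TPM with a median of 21.3 TPM, whereas the medians of their means were 11.69 TPM with inhibition and 11.35 TPM in control. Summed over all 77 genes, spermidine libraries held 4941 to 5046 TPM, inhibition libraries 2703 to 2732 TPM and control libraries 2479 to 2527 TPM. The ratio to the nearer of the other group means had a median of 1.746 and a range of 1.601 to 3.147. Only 15 genes reached 2-fold and 2 reached 3-fold. The share of selected genes fell with abundance, from 8.019% of the 424 genes at 10 to 20 TPM through 5.0% of 480 at 20 to 50 TPM, 3.042% of 263 at 50 to 100 TPM and 2.053% of 487 at 100 to 1000 TPM to 0 of 86 genes above 1000 TPM. The median ratio of spermidine to inhibition moved along with it, at 1.205, 1.199, 1.174, 1.081 and 1.043 in the same 5 classes.

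In all 76 higher genes the 3 spermidine libraries lay above each of the other 6 libraries. Among all genes of 10 TPM or more, 35.8% had that order and 4.07% had the spermidine libraries below the other 6. All 77 genes passed the filter on low counts. By edgeR's quasi-likelihood test with Benjamini-Hochberg adjustment, 74 of the 76 were called higher in spermidine than in inhibition libraries, where 29.1% of all tested genes were, and 70 of 76 were called higher than in control, where 41.0% were. In the other direction, 28.9% of tested genes were lower than in inhibition and 37.1% lower than in control. With total-count scaling the split over all genes was 7711 higher and 1793 lower than in inhibition, in place of 4213 and 4183, and 7705 higher and 3682 lower than in control, in place of 5930 and 5363. These contrasts are the ones the rule used, so the counts describe the selection. The median log2 fold change of the 76 was 0.52 against inhibition and 0.48 against control, beside 0.03 and 0.06 over all tested genes. Closeness of inhibition and control was a limit on means and did not mean equality. Of the 77 genes, 42 were called different between inhibition and control, 22 higher and 20 lower with inhibition, against 72.4% of all tested genes in either direction.

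**Figure D2:**
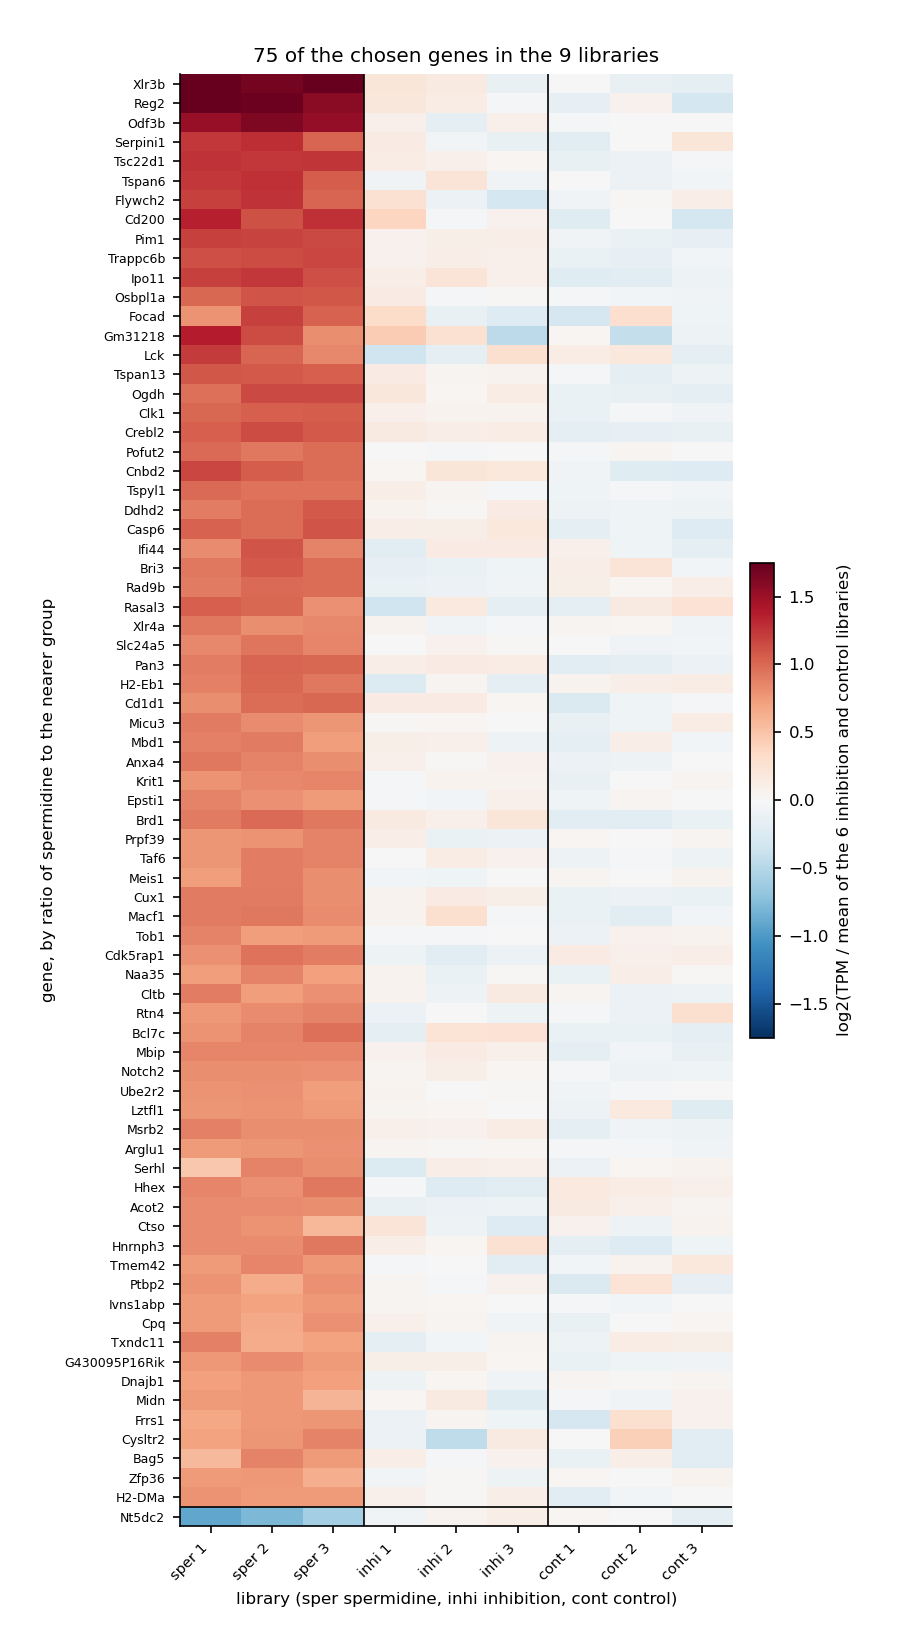
Each row is one of 75 selected genes and each column a library, coloured by log2 of its TPM over the mean of the 6 inhibition and control libraries; rows run from the highest ratio of spermidine to the nearer group downwards, with Nt5dc2 below the line. The 3 spermidine columns are red in all 74 higher genes drawn, and inhibition and control columns stay near white apart from single libraries of low genes such as Gm31218, Cysltr2 and Lck.

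The widest separation belonged to Xlr3b (ENSMUSG00000073125, chrX:73192207-73202930 in mm10), of the X-linked lymphocyte-regulated gene family. It had 13.2, 12.4 and 13.5 TPM in spermidine libraries, 4.5, 4.36 and 3.56 TPM in inhibition libraries and 3.9, 3.58 and 3.51 TPM in control libraries. The lowest spermidine library was well above the highest of the other 6, and the mean was 3.15 times that of inhibition and 3.56 times that of control. On counts its log2 fold change was 1.35 ± 0.07 against inhibition and 1.54 ± 0.08 against control (SE). A relative in the same cluster, Xlr4a (chrX:73074345-73082478), was also selected and lies 109729 bases away on the opposite strand. Xlr4a had 48.4, 44.9 and 45.8 TPM in spermidine libraries, 26.7, 24.4 and 24.96 TPM in inhibition libraries and 26.4, 26.04 and 24.6 TPM in control libraries. Again the spermidine libraries lay above all others. Other copies of the family did not meet the rule. Xlr4b averaged 30.1 TPM with spermidine, 17.9 TPM with inhibition and 26.4 TPM in control, and Xlr3a 2.89, 2.33 and 0.397 TPM in the same order. These copies are nearly identical, and the deposited estimated counts may divide shared reads among them, so the level of any single Xlr gene is uncertain.

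The promoter windows of these neighbours are shown because both genes moved in the same direction from a shared cluster. Each window covers 250 bases before to 50 after the RefSeq start (GRCm38.p6, the same build as mm10), read 5′ to 3′ on the gene's strand. Capitals mark CCAAT boxes in both windows and, in Xlr4a, also the ETS motif CCGGAAG. Both windows hold the stretch ccagCCAATcagaga, of 15 bases, which is the longest they share. It begins 25 bases before the start of Xlr3b and 48 before that of Xlr4a.
Xlr3b, chrX:73191929-73192228, plus strand: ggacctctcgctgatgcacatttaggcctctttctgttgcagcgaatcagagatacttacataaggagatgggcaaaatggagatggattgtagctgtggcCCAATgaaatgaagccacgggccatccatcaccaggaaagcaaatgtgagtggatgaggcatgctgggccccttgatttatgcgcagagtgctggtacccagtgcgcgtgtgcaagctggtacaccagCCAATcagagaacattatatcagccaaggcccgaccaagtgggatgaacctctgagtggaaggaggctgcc
Xlr4a, chrX:73082458-73082757, minus strand: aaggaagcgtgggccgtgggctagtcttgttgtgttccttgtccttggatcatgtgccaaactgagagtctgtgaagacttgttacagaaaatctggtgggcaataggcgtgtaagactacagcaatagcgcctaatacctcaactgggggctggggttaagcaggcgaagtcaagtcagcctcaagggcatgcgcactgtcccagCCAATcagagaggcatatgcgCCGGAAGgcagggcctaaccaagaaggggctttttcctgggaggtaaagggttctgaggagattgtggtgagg

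Reg2 (ENSMUSG00000023140, chr6:78395623-78408106) encodes a secreted lectin-like protein of the regenerating islet-derived family, best known from the pancreas. It had 30.6, 28.6 and 25.96 TPM in spermidine libraries, 10.05, 9.59 and 8.51 TPM in inhibition libraries and 7.89, 9.23 and 7.08 TPM in control libraries. No library of another group came near the spermidine libraries, and the ratio was 3.02 to inhibition and 3.52 to control. Its promoter window is shown as that of a strongly separated gene outside the GC-rich class, with a GC content of 40.7%. Capitals mark a TATA box and a MEIS motif, TGACAG. The TATA box (letters TATAAA) occurred in 10.9% of the 64 higher genes with a window, 9.04% of 1360 other eligible genes and 15.7% of all 27025 genes with one.
Reg2, chr6:78404905-78405204, plus strand: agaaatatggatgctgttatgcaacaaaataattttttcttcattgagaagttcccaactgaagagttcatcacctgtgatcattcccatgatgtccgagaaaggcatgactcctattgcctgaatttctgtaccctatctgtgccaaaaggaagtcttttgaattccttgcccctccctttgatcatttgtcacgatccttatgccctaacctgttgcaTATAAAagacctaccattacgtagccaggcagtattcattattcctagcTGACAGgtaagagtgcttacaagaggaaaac

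Odf3b, an outer dense fibre protein gene known from sperm tails, had 19.4, 20.9 and 19.5 TPM in spermidine libraries, 7.16, 5.97 and 7.18 TPM in inhibition libraries and 6.62, 6.68 and 6.74 TPM in control libraries. It stood out for control libraries that varied by 0.0599 TPM (SD, n = 3) around 6.68 TPM, and its log2 fold change on counts was 1.27 ± 0.09 against inhibition. Serpini1, which encodes neuroserpin, an inhibitor of plasminogen activators, had 10.53, 10.95 and 9.07 TPM in spermidine libraries, 4.91, 4.32 and 4.08 TPM in inhibition libraries and 3.89, 4.44 and 5.16 TPM in control libraries. With a spermidine mean of 10.18 TPM it was the least abundant gene that met the level requirement on the higher side. Flywch2 had 21.3, 22.3 and 18.8 TPM in spermidine libraries, 11.2, 8.62 and 7.48 TPM in inhibition libraries and 8.84, 9.37 and 10.02 TPM in control libraries. Its spermidine libraries also lay above all others. Trappc6b, a subunit of the complex that tethers transport vesicles, averaged 46.2 ± 0.639 TPM with spermidine, 22.3 ± 0.335 TPM with inhibition and 19.5 ± 0.719 TPM in control (SD, n = 3 each). Every spermidine library of Trappc6b exceeded 45 TPM and no other library reached 23 TPM.

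Among regulators of the stem-cell state, Tsc22d1 and Pim1 combined high abundance with a ratio above 2. Tsc22d1, a leucine-zipper transcription regulator induced by TGF-beta, had 319, 311 and 314 TPM in spermidine libraries, 145, 141 and 136 TPM in inhibition libraries and 121, 123 and 129 TPM in control libraries. Its ratios were 2.23 and 2.53, and its log2 fold change on counts was 0.83 ± 0.03 against inhibition and 1.05 ± 0.03 against control. Pim1 (ENSMUSG00000024014, chr17:29490753-29496112), a serine/threonine kinase that cytokine receptors induce through STAT factors and that favours survival, had 331, 329.8 and 323 TPM in spermidine libraries, 153, 155 and 157 TPM in inhibition libraries and 139, 134 and 132 TPM in control libraries. The spermidine libraries differed from each other by far less than they differed from the rest. Its log2 fold change on counts was 0.80 ± 0.03 against inhibition and 0.95 ± 0.03 against control. The relatives of both genes, a family comparison added after the selection was known, were all less abundant. Tsc22d2 averaged 12.9 TPM with spermidine, 7.99 TPM with inhibition and 5.12 TPM in control, and Tsc22d3 62.6, 47.2 and 44.4 TPM in the same order. Both passed the edgeR test against inhibition, with log2 fold changes of 0.43 ± 0.06 (SE, adjusted p = 2.584e-05) and 0.12 ± 0.03 (SE, adjusted p = 0.002657). Pim2 averaged 4.96 TPM with spermidine, 2.22 TPM with inhibition and 0.945 TPM in control, and Pim3 1.26, 0.503 and 1.07 TPM in the same order.

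The first Pim1 promoter window is shown because this gene is abundant and kept its place in the group under each scaling of levels used here. Its GC content is 81.3%, and capitals mark 7 GC boxes (GGGCGG or its reverse complement CCGCCC).
Pim1, chr17:29490535-29490834, plus strand: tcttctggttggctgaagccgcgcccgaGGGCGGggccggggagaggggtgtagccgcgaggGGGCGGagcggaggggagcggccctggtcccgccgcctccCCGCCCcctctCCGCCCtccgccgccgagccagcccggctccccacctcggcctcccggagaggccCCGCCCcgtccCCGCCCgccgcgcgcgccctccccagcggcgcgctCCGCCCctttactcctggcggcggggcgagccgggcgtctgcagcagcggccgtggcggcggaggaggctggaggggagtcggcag

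Meis1, a homeobox transcription factor that keeps HSCs quiescent, had 38.5, 43.02 and 40.6 TPM in spermidine libraries, 22.3, 21.97 and 23.2 TPM in inhibition libraries and 23.99, 22.99 and 24.1 TPM in control libraries. The spermidine libraries lay above all others, as in all 76 higher genes, while inhibition and control libraries overlapped. The ratios were 1.81 and 1.72. On counts the log2 fold change was 0.48 ± 0.04 against inhibition and 0.40 ± 0.04 against control. Hhex, a homeobox factor of haematopoietic and lymphoid development, had 69.2, 66.2 and 72.1 TPM in spermidine libraries, 37.8, 32.5 and 33.3 TPM in inhibition libraries and 42.9, 41.8 and 40.7 TPM in control libraries. Here inhibition lay below control, with a ratio of 0.826, close to the edge of 0.8. Notch2, the receptor for Jagged and Delta ligands, had 79.03, 79.6 and 78.4 TPM in spermidine libraries, 46.7, 48.3 and 46.2 TPM in inhibition libraries and 44.1, 42.4 and 42.96 TPM in control libraries. It was among the most even genes, with a spermidine SD of 0.585 TPM (n = 3). Cux1, a cut-homeobox factor, averaged 23.4 TPM with spermidine, 13.7 TPM with inhibition and 11.8 TPM in control. Cd200, a surface glycoprotein that restrains myeloid cells through its receptor, had 17.5, 14.8 and 16.5 TPM in spermidine libraries, 8.82, 6.69 and 7.14 TPM in inhibition libraries and 5.89, 6.82 and 5.49 TPM in control libraries, and the ratio of inhibition to control was 1.244, just inside the upper edge of 1.25. On counts Cd200 was higher with inhibition than in control (log2 fold change 0.94 ± 0.14, SE, adjusted p = 9.218e-06 by edgeR).

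Meis1 was the sole selected gene among 18 HSC markers, of which 2 met the level requirement with inhibition close to control. Of these 18, 12 were higher and 3 lower with spermidine than with inhibition, or 13 higher and 1 lower with total-count scaling, and 12 were higher and 4 lower than in control, by edgeR. The median log2 fold change of the list was 0.44 against inhibition and 1.21 against control, beside 0.03 and 0.06 for all tested genes. Hoxa9, a homeobox gene of immature blood cells, averaged 58.2 TPM with spermidine, 30.0 TPM with inhibition and 10.3 TPM in control. Cd34, a progenitor surface marker, averaged 27.2, 14.9 and 2.33 TPM in the same order. The inhibition means of Hoxa9 and Cd34 lay far above their control means, so neither met the rule. Notch2 was the sole selected gene among 35 cytokine and Notch receptors, of which 5 were eligible in that sense. Against inhibition, 12 of the 35 were higher and 10 lower with spermidine, or 18 higher and 6 lower with total-count scaling. Over all tested genes 29.1% were higher and 28.9% lower.

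**Figure D3:**
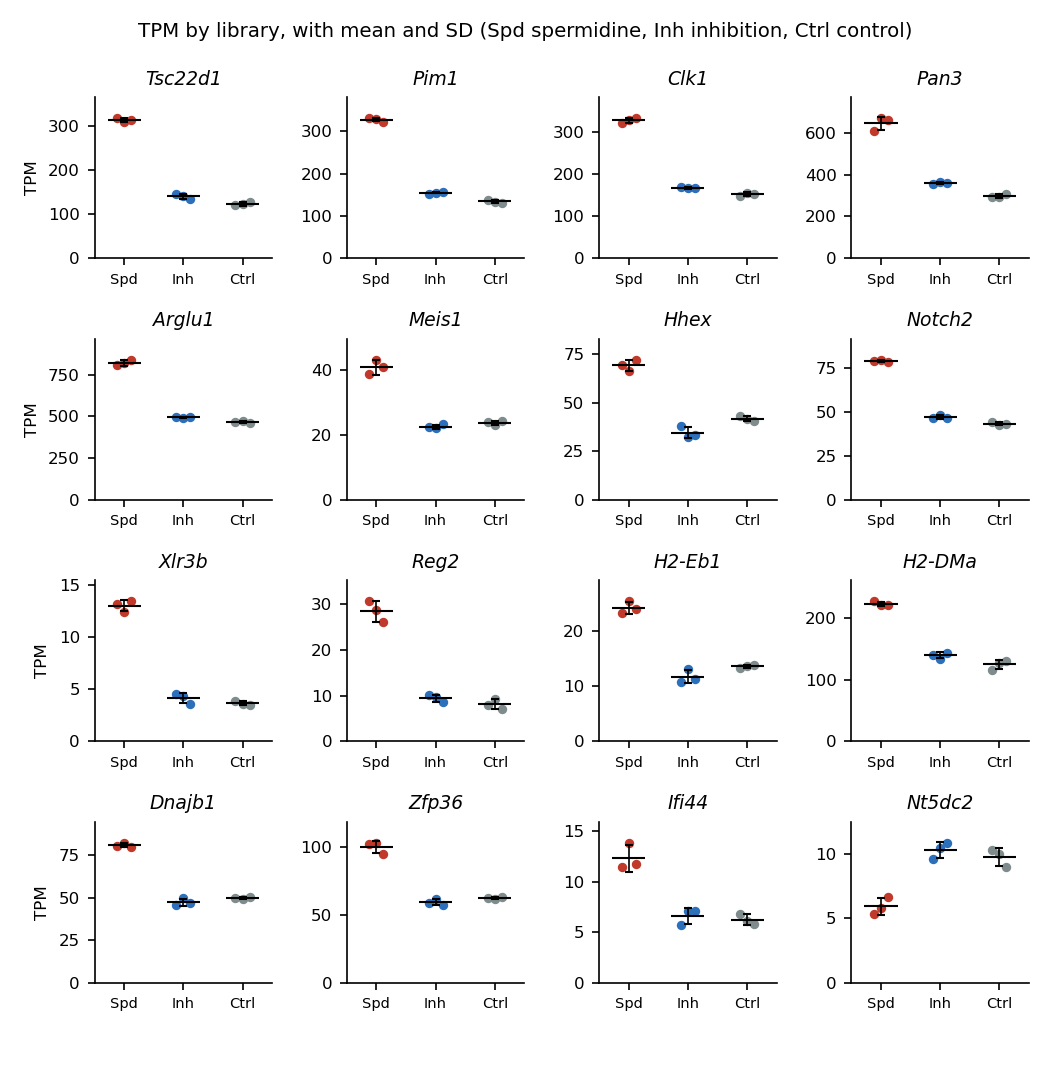
TPM in each library (points) with the group mean (line) and SD (bar) for 16 selected genes, spermidine in red, inhibition in blue and control in grey, each axis starting at 0. In the 15 higher genes the red points lie above all others, and in Nt5dc2 they lie below.

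Arglu1 and Pan3, the most abundant pair of the selected genes, handle RNA, as does Clk1. Arglu1, an arginine- and glutamate-rich protein that modulates splicing and transcription, had 806, 819 and 840.1 TPM in spermidine libraries, 498, 489 and 494 TPM in inhibition libraries and 467, 472 and 461 TPM in control libraries. It was the most abundant of the 77, with ratios of 1.66 and 1.76. Pan3, the regulatory subunit of a deadenylase that trims poly(A) tails, had 611, 670.3 and 659 TPM in spermidine libraries, 356, 365 and 361 TPM in inhibition libraries and 291, 295 and 308 TPM in control libraries. Its catalytic partner Pan2 averaged 1.26 TPM with spermidine, 0.972 TPM with inhibition and 1.63 TPM in control, and the edgeR test called no difference of Pan2 from inhibition (log2 fold change 0.06 ± 0.11, SE, adjusted p = 0.69). Clk1, a kinase that phosphorylates the SR splicing factors, had 321, 329 and 333 TPM in spermidine libraries, 170.2, 167 and 166 TPM in inhibition libraries and 147, 156 and 154 TPM in control libraries. The 3 genes did not overlap between groups, and their log2 fold changes on counts against inhibition were 0.44 ± 0.03 for Arglu1, 0.54 ± 0.03 for Pan3 and 0.66 ± 0.03 for Clk1.

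Clk1 was the sole selected gene among 48 splicing factors, of which 26 were eligible. With spermidine, 16 of the 48 were higher and 18 lower than with inhibition, or 33 higher and 2 lower with total-count scaling. The splicing factor Srsf2 averaged 1350.0 TPM with spermidine, 774.6 TPM with inhibition and 546.7 TPM in control, and passed the test against inhibition (log2 fold change 0.47 ± 0.03, SE, adjusted p = 4.001e-09). Its inhibition and control means were too far apart for the rule. Srrm2, a scaffold of the spliceosome, averaged 21.4, 19.2 and 57.9 TPM in the same order. Clk4, the closest relative of Clk1, averaged 96.2 TPM with spermidine, 66.8 TPM with inhibition and 56.9 TPM in control.

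Less abundant RNA-processing genes followed. Prpf39, a U1 snRNP assembly factor, averaged 16.2 TPM with spermidine, 9.07 TPM with inhibition and 9.43 TPM in control. It overlaps Fkbp3 on the opposite strand, at 851 TPM with spermidine, 633 TPM with inhibition and 468 TPM in control, and because no strand-specific step is stated their reads cannot be told apart where they overlap. The same limit holds for other selected genes that overlap a gene on the opposite strand, among them H2-DMa and Cnbd2. H2-DMa overlaps Brd2, at 18.95 TPM with spermidine, 18.64 TPM with inhibition and 43.24 TPM in control. Cnbd2 overlaps Scand1, at 21.33, 15.33 and 27.23 TPM in the same order. Hnrnph3, an RNA-binding protein of the heterogeneous ribonucleoprotein group, averaged 14.5 TPM with spermidine, 8.83 TPM with inhibition and 7.18 TPM in control. Ptbp2, a repressor of splicing best known from neurons, averaged 16.2 TPM with spermidine, 9.89 TPM with inhibition and 9.42 TPM in control. Tob1, an antiproliferative protein that recruits deadenylases, averaged 12.8 ± 0.692 TPM with spermidine, 7.38 ± 0.108 TPM with inhibition and 7.49 ± 0.496 TPM in control (SD, n = 3 each). Cdk5rap1, which modifies mitochondrial tRNAs, averaged 19.03 TPM with spermidine, 9.45 TPM with inhibition and 11.2 TPM in control, with inhibition below control.

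Zfp36, which encodes tristetraprolin, a protein that binds AU-rich elements and hastens decay of cytokine mRNAs, had 103, 103 and 94.7 TPM in spermidine libraries, 58.7, 61.8 and 57.4 TPM in inhibition libraries and 62.6, 61.5 and 63.6 TPM in control libraries. Its ratio to control, 1.602, lay just inside the threshold of 1.6, and its inhibition and control libraries overlapped. Zfp36 belongs to the immediate-early list, in which 27 of 29 tested genes were higher and 1 lower with spermidine than with inhibition, with a median log2 fold change of 0.50. Over all tested genes 29.1% were higher and 28.9% lower. Against control, 12 were higher and 13 lower, with a median of 0.06. Nr4a1, an orphan nuclear receptor, averaged 68.6 TPM with spermidine, 27.7 TPM with inhibition and 15.5 TPM in control. Dusp2, a phosphatase of MAP kinases, averaged 45.5, 20.9 and 33.5 TPM in the same order. Ier2 averaged 340.0, 188.9 and 307.5 TPM. Between inhibition and control, 6 of the 29 were higher and 21 lower with inhibition, where 72.4% of all tested genes differed in either direction. In this list 5 genes were eligible, and Zfp36 was the one whose ratios to both groups reached 1.6. It also stands in the list of 328 tested Zfp symbols, of which 109 were higher and 43 lower with spermidine than with inhibition, or 199 higher and 13 lower with total-count scaling. A pair of its relatives, examined after the selection was known, were Zfp36l2, at 95.6 TPM with spermidine, 54.4 TPM with inhibition and 60.4 TPM in control, and Zfp36l1, at 12.0, 7.89 and 27.3 TPM in the same order.

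Dnajb1, the J-domain cochaperone that delivers clients to Hsp70, had 80.3, 82.3 and 80.1 TPM in spermidine libraries, 45.7, 49.6 and 46.7 TPM in inhibition libraries and 50.1, 49.3 and 50.3 TPM in control libraries. No other of 37 chaperone genes met the rule, and 8 of the 37 were eligible. In that list 7 were higher and 23 lower with spermidine than with inhibition, and the median log2 fold change was -0.20, or 0.06 under scaling by total count, so the direction of the list turned with the scaling. Hsp90b1, a chaperone of the endoplasmic reticulum, averaged 105.0 TPM with spermidine, 136.9 TPM with inhibition and 73.7 TPM in control, and fell against inhibition on the TMM scale (log2 fold change -0.74 ± 0.03, SE, adjusted p = 8.026e-12). Bag5, a regulator of Hsp70 nucleotide exchange, averaged 20.3 TPM with spermidine, 12.7 TPM with inhibition and 11.8 TPM in control, with a ratio of 1.603 to inhibition.

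Antigen-presentation genes contributed 3 selected genes. H2-DMa, a subunit of the chaperone that loads peptides onto class II molecules, had 227, 221 and 221 TPM in spermidine libraries, 140.2, 134 and 143 TPM in inhibition libraries and 116, 127 and 131 TPM in control libraries. It had the smallest ratio of the 76, 1.601 to inhibition. H2-Eb1, a class II beta chain, had 23.4, 25.5 and 23.98 TPM in spermidine libraries, 10.8, 13.1 and 11.3 TPM in inhibition libraries and 13.3, 13.8 and 13.8 TPM in control libraries. Both lie on chromosome 17, separated by 166766 bases. Cd1d1, which presents lipids to natural killer T cells, had 32.8, 36.7 and 37.3 TPM in spermidine libraries, 20.6, 20.6 and 19.1 TPM in inhibition libraries and 15.6, 17.7 and 18.1 TPM in control libraries. Among the 9 class II genes listed, a group formed after the selection was known, 7 were higher with spermidine than with inhibition, while against control 5 were higher and 3 lower. These counts include H2-DMa and H2-Eb1, which the rule chose as higher. Of the other class II genes, H2-Oa, H2-DMb2 and H2-Ob were higher than in control, and H2-Ab1, H2-Aa and H2-DMb1 lower. H2-Ab1 averaged 65.9 TPM with spermidine, 34.3 TPM with inhibition and 73.8 TPM in control, so it had no place in the rule. Of 12 dendritic-cell markers, 6 of 11 tested were higher and 1 lower with spermidine than with inhibition, or 9 higher and 0 lower with total-count scaling, and their summed level was 308 to 322 TPM with spermidine, 225 to 232 TPM with inhibition and 119 to 130.4 TPM in control. This list includes the class II genes H2-Ab1 and H2-Aa, so it is not separate from the class II genes. Together with Ly6d, at 184.3, 151.7 and 9.896 TPM in the same order, they made up most of the sum in each group. Other markers of this list differed in level and order. Itgax stayed below 0.1 TPM in each group mean. Siglech averaged 4.04 TPM with spermidine, 2.38 TPM with inhibition and 0.342 TPM in control. Tcf4 averaged 24.1, 14.4 and 9.69 TPM in the same order, and Irf8 4.997, 5.145 and 5.742 TPM. The part of such cells in the class II values was not tested.

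The H2-Eb1 promoter is shown because class II promoters are known for a Y box, which is an inverted CCAAT motif. Capitals mark a match on each strand, ATTGG and CCAAT.
H2-Eb1, chr17:34305617-34305916, plus strand: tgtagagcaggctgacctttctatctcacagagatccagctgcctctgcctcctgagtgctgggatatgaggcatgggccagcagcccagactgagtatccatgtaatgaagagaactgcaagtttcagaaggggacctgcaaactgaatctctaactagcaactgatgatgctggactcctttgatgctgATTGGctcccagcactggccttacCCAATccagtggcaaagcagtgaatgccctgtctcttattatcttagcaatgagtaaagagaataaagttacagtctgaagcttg

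Ifi44, an interferon-induced gene, had 11.4, 13.9 and 11.7 TPM in spermidine libraries, 5.7, 7.09 and 7.13 TPM in inhibition libraries and 6.83, 6.15 and 5.81 TPM in control libraries. It was the sole selected gene of 35 type I interferon genes, of which 3 were eligible. Of the 35, 9 were higher and 5 lower with spermidine than with inhibition, or 23 higher and 0 lower with total-count scaling. Against control 6 were higher and 22 lower. Ifi27 averaged 466 TPM with spermidine, 312 TPM with inhibition and 194 TPM in control. Usp18, a brake on interferon signalling, averaged 7.71, 4.11 and 9.37 TPM in the same order. Epsti1, another gene that responds to interferon but stands in none of the lists, averaged 12.2 TPM with spermidine, 6.999 TPM with inhibition and 6.93 TPM in control.

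Enzymes of the mitochondria and of metabolism formed a further set. Acot2, a mitochondrial thioesterase that releases fatty acids from acyl-CoA, had 131, 131 and 129 TPM in spermidine libraries, 67.4, 68.5 and 69.3 TPM in inhibition libraries and 81.7, 78.2 and 76.3 TPM in control libraries. Its groups were tight, and control lay above inhibition. Ogdh, the first subunit of the oxoglutarate dehydrogenase complex of the citrate cycle, had 36.3, 41.1 and 41.5 TPM in spermidine libraries, 21.3, 19.01 and 20.2 TPM in inhibition libraries and 17.1, 16.9 and 16.6 TPM in control libraries. On counts the log2 fold change of Ogdh was 0.34 ± 0.05 against inhibition and 0.15 ± 0.05 against control (SE). Citrate-cycle genes, 14 with Ogdh included, were grouped after the selection was known. On the TMM scale 2 of the 14 were higher and 9 lower with spermidine than with inhibition. Over all tested genes the shares were 29.1% and 28.9%. Micu3, a regulator of the mitochondrial calcium uniporter, averaged 15.3 ± 0.705 TPM with spermidine, 8.68 ± 0.0987 TPM with inhibition and 8.45 ± 0.807 TPM in control (SD, n = 3 each). Mcu, the pore of that uniporter, ran the other way at 25.2 TPM with spermidine, 32.2 TPM with inhibition and 15.4 TPM in control (log2 fold change -0.67 ± 0.04 against inhibition, SE, adjusted p = 3.627e-10). Msrb2, a mitochondrial methionine sulfoxide reductase, averaged 23.5 TPM with spermidine, 14.1 TPM with inhibition and 12.3 TPM in control. No nuclear gene of oxidative phosphorylation was selected, and 60 of 75 met the level requirement with inhibition close to control. Over all 1740 such genes 4.425% were selected, and 2.053% at 100 to 1000 TPM. The 75 genes are abundant, with a sum of 52280 to 53400 TPM with spermidine, so few would be selected at that share. On the TMM scale 71 of the 75 were lower and 0 higher with spermidine than with inhibition, and with total-count scaling 31 were lower and 14 higher. Of 78 mitochondrial ribosomal protein genes, 50 were eligible and 0 were selected.

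None of 27 polyamine and hypusination genes was selected, and 3 were eligible. Of 26 tested, 7 were higher and 11 lower with spermidine than with inhibition, or 12 higher and 4 lower with total-count scaling. Odc1, the rate-limiting enzyme of polyamine synthesis, averaged 55.0 TPM with spermidine, 36.1 TPM with inhibition and 50.3 TPM in control. Sat1, the acetyltransferase that marks spermidine for breakdown, averaged 232.6, 265.2 and 92.4 TPM in the same order. None of 54 autophagy and lysosome genes was selected either, and 5 were eligible. There, 13 were higher and 26 lower with spermidine than with inhibition on the TMM scale, and 24 higher and 10 lower with total-count scaling.

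Membrane and transport proteins included Slc24a5, a potassium-dependent sodium-calcium exchanger known from pigment cells, with 21.3, 22.7 and 21.5 TPM in spermidine libraries, 11.9, 12.5 and 12.1 TPM in inhibition libraries and 11.9, 11.4 and 11.5 TPM in control libraries. It overlaps Myef2 on the opposite strand, at 23.7 TPM with spermidine, 17.1 TPM with inhibition and 9.44 TPM in control. Of 255 tested solute carriers, 75 were higher and 51 lower with spermidine than with inhibition, or 127 higher and 31 lower with total-count scaling. The share called higher on the TMM scale was close to the 29.1% over all tested genes. The tetraspanin Tspan13 had 203, 202 and 198 TPM in spermidine libraries, 106, 99.4 and 101 TPM in inhibition libraries and 94.4, 85.6 and 90.2 TPM in control libraries. Tspan6, another tetraspanin, had 17.9, 18.4 and 15.9 TPM in spermidine libraries, 7.28, 8.88 and 7.3 TPM in inhibition libraries and 7.67, 7.08 and 7.38 TPM in control libraries. Ipo11, an importin that carries ubiquitin-conjugating enzymes into the nucleus, averaged 80.99 ± 3.15 TPM with spermidine, 39.4 ± 1.96 TPM with inhibition and 31.9 ± 1.35 TPM in control (SD, n = 3 each). Genes of vesicle traffic, lysosomes and lipid handling were Cltb (clathrin light chain), Osbpl1a (an oxysterol-binding protein), Ctso (cathepsin O), Cpq (carboxypeptidase Q), Ddhd2 (a phospholipase) and Anxa4 (an annexin). Their ratios to the nearer group lay between 1.634 for Cpq and 2.032 for Osbpl1a.

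Further signalling genes had spermidine means between 10.33 TPM for Lck and 83.1 TPM for Casp6. Lck, the Src-family kinase of T cell receptors, had 11.8, 10.2 and 9.01 TPM in spermidine libraries, 3.96, 4.47 and 6.11 TPM in inhibition libraries and 5.52, 5.74 and 4.47 TPM in control libraries. Its counts gave 0.46 ± 0.11 against inhibition and 1.36 ± 0.12 against control on the log2 scale. The defining T cell marker Cd3e had a mean of 0.255 TPM with spermidine, 0.0713 TPM with inhibition and 0.0097 TPM in control, whereas Cd3d averaged 3.65, 4.86 and 1.54 TPM and Cd3g 1.595, 2.59 and 0.184 TPM in the same order. Of 11 T and natural killer cell markers, 2 of 9 tested were higher and 4 lower with spermidine than with inhibition, and 7 were higher and 2 lower than in control. Their summed level, mostly Nkg7, was 1340.0 to 1440.0 TPM with spermidine, 1998 to 2110.0 TPM with inhibition and 1427 to 1486 TPM in control. The part of such cells in the Lck values was not tested. Cysltr2, a leukotriene receptor, had 10.1, 10.6 and 11.3 TPM in spermidine libraries, 5.77, 4.55 and 6.93 TPM in inhibition libraries and 6.22, 8.32 and 5.42 TPM in control libraries. Rasal3, a GTPase-activating protein for Ras, averaged 13.1 TPM with spermidine, 6.3 TPM with inhibition and 7.23 TPM in control. On counts the log2 fold change of Rasal3 was 0.57 ± 0.11 against inhibition and 0.18 ± 0.11 against control (SE). Casp6, an effector caspase, averaged 83.1 ± 3.79 TPM with spermidine, 44.5 ± 1.28 TPM with inhibition and 36.5 ± 1.79 TPM in control (SD, n = 3 each). Krit1, Mbip, Midn, Frrs1, Ube2r2, Ivns1abp, Lztfl1 and Pofut2, of varied roles, were also selected, with spermidine means of 12.19 to 34.35 TPM.

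Chromatin and transcription genes were Brd1 (a scaffold of histone acetyltransferases), Mbd1 (a reader of methylated CpG), Taf6 (a TFIID subunit), Bcl7c (a SWI/SNF subunit), Crebl2, Tspyl1 and Rad9b (a clamp protein of the DNA damage checkpoint). Taf6 averaged 83.4 TPM with spermidine, 48.5 TPM with inhibition and 44.3 TPM in control, and Brd1 15.9 TPM with spermidine, 9.23 TPM with inhibition and 7.4 TPM in control. Brd1 lay at the edge of the rule, with an inhibition to control ratio of 1.248. None of the 44 fixed chromatin regulators was selected, and 7 were eligible. Among the 44, 16 were higher and 6 lower with spermidine than with inhibition, or 36 higher and 0 lower with total-count scaling. Further genes of the 76 were Macf1, a linker of actin and microtubules, Bri3, Cnbd2, Focad, Tmem42, Serhl, Naa35, Rtn4, Txndc11 and the unnamed models Gm31218 and G430095P16Rik. Gm31218 is the only one of the 76 that is not annotated as protein-coding.

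In some genes TPM and counts went apart. Dividing the count by the TPM gives the transcript length the deposited values imply, which was calibrated on 208 single-transcript genes with a median absolute log2 error of 0.159. For 6 of the 76 genes (7.895%) this length differed by more than 0.5 on the log2 scale between spermidine and inhibition or control, against 2.586% of the 1663 other eligible genes. Of the 6, Ogdh and Txndc11 had shorter implied transcripts in spermidine libraries than in control, with log2 differences of -0.68 and -0.61. Lck, Cux1 and Cd200 had longer ones, with log2 differences of 0.79, 0.65 and 0.56. Txndc11, a thioredoxin of the endoplasmic reticulum, shows the widest gap in direction. It had 14.1, 12.1 and 12.6 TPM in spermidine libraries, 6.92, 7.42 and 7.93 TPM in inhibition libraries and 7.25, 8.43 and 8.27 TPM in control libraries. By TPM the spermidine libraries lay above all others. On counts the log2 fold change of Txndc11 was 0.04 ± 0.06 against inhibition and -0.31 ± 0.06 against control. Rtn4, a reticulon of the endoplasmic reticulum, averaged 19.5 TPM with spermidine, 10.6 TPM with inhibition and 11.5 TPM in control, while its counts gave 0.17 ± 0.05 and -0.07 ± 0.05 on the log2 scale. Naa35, a subunit of an N-terminal acetyltransferase, averaged 22.2 TPM with spermidine, 12.9 TPM with inhibition and 13.1 TPM in control, while its counts gave 0.06 ± 0.04 against inhibition. Txndc11 and Naa35 are the 2 selected genes that edgeR did not call higher than inhibition. The higher genes by TPM that edgeR did not call higher than control were Txndc11, Rtn4, Focad, Rasal3, Serhl and Frrs1. Log2 fold changes on counts against control were 0.14 ± 0.11 for Focad, 0.12 ± 0.07 for Serhl and -0.05 ± 0.05 for Frrs1.

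**Figure D4:**
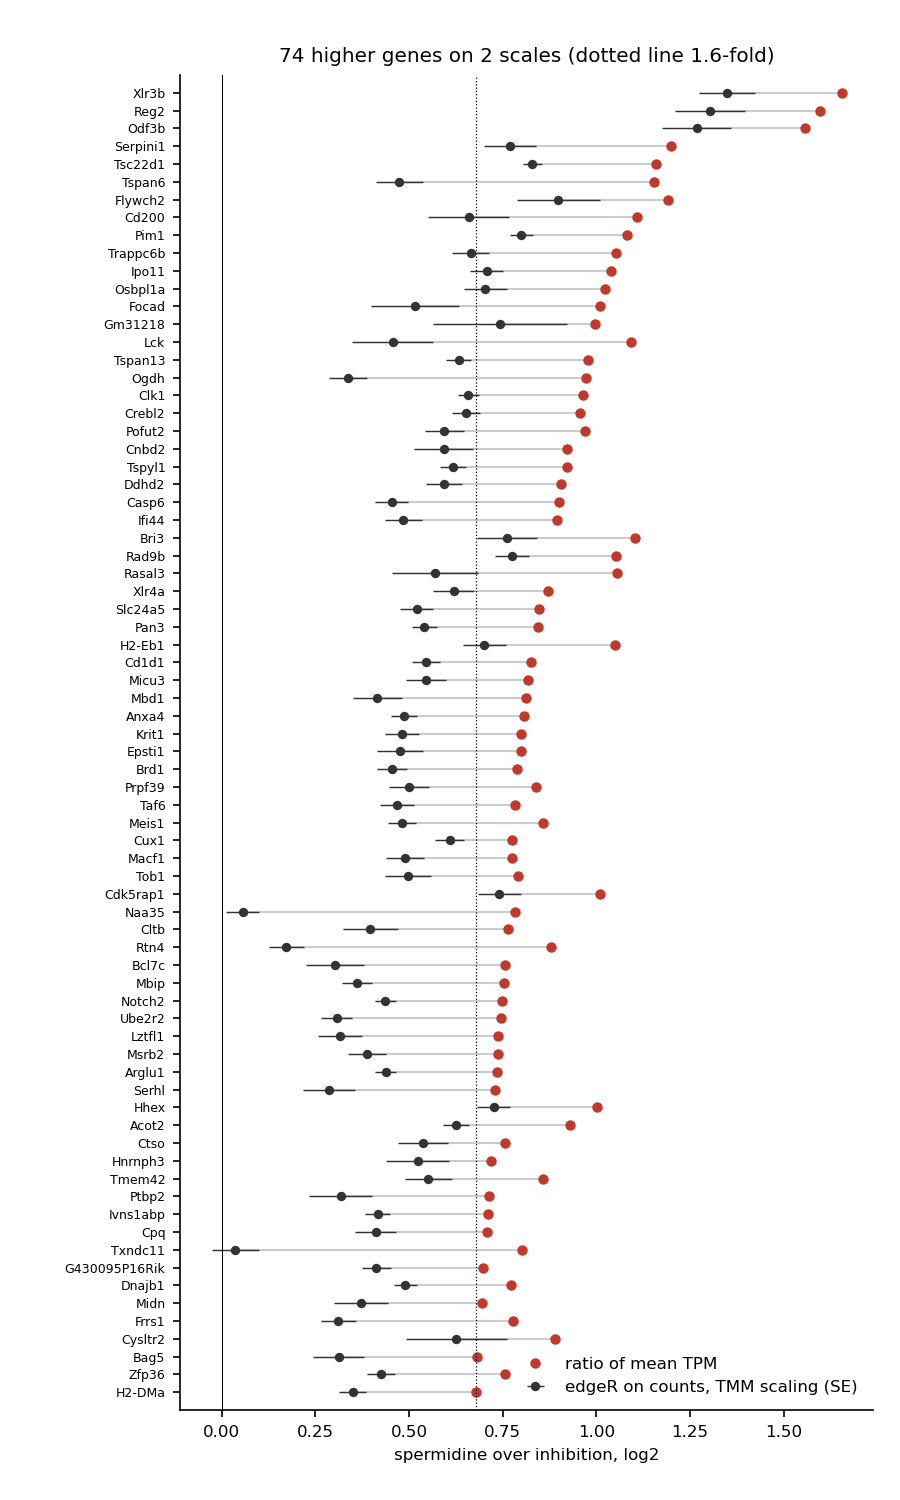
For each of 74 higher genes, the log2 ratio of mean TPM of spermidine over inhibition (red) and the edgeR log2 fold change on TMM-scaled counts with its SE (black). The counts lie left of the TPM in all 74 genes drawn, the dotted line marks 1.6-fold, and the gap is wide in Txndc11, Naa35 and Rtn4.

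Nt5dc2 (ENSMUSG00000071547, chr14:31131053-31139124), a gene of the nucleotidase-domain family, was the single one that was lower with spermidine. It had 5.35, 5.84 and 6.66 TPM in spermidine libraries, 9.64, 10.47 and 10.9 TPM in inhibition libraries and 10.3, 10.003 and 9.001 TPM in control libraries. All 3 spermidine libraries lay below the other 6, and the ratios were 0.576 to inhibition and 0.609 to control. On counts the log2 fold change was -1.09 ± 0.11 against inhibition and -1.04 ± 0.11 against control. It met the rule through its inhibition mean of 10.33 TPM, close to the minimum of 10 TPM. It overlaps Stab1 on the opposite strand, at 5.495 TPM with spermidine, 7.65 TPM with inhibition and 17.3 TPM in control. Leaving out spermidine replicate 1, or control replicate 1, took Nt5dc2 out of the rule, and the count of lower genes was 0 and 1 in those cases. With rescaled TPM, the lower set of 13 also held Il1b, Slc7a14, Rbks, Ube2m, Mt1, Cenpa, Commd5, Tmsb4x, Cdkn3, Rwdd4a, Gdpd3 and Birc5. Mt1, a metallothionein, was the nearest miss without rescaling, at 699.6 TPM with spermidine, 1118 TPM with inhibition and 1270.0 TPM in control.

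At the thresholds, H2-DMa and Zfp36 lay just inside a ratio of 1.6, at 1.601 and 1.602, and Ssbp2 and Dennd5a just outside, at 1.598 and 1.597. Serpini1 and Lck lay just inside the level requirement, with highest group means of 10.18 and 10.33 TPM, and Tbxas1 and Sec61a2 just outside, at 9.458 and 9.414 TPM. Of the 76 genes, 49 met the rule whichever library was left out and 27 missed it in at least 1 of the 9 cases.

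The selected genes were also compared, as a description, with the 1663 other eligible genes. The annotation and sequence features were not used by the rule. The implied length is computed from the TPM values that the rule used, so it is not separate from the selection. The longest annotated transcript of the selected genes had a median of 3206 bases, against 2296 in the other eligible genes. The length implied by counts and TPM was 1800.0 against 1210.0 bases. The GC content of the longest annotated transcript was 46.98% against 48.07%. They were spread over 19 autosomes and the X chromosome, with 8 on chromosome 3 and 3 on the X chromosome. Promoter windows from RefSeq (GRCm38.p6) were found for 64 of the 76 genes (90 windows of 300 bases) and searched on both strands. The GC box GGGCGG occurred in 60.9% of the 64 genes, 67.5% of 1360 other eligible genes with a window and 38.2% of all 27025 genes with one. The CCAAT box occurred in 43.8%, 44.0% and 41.1% of the same sets, and the ETS motif CCGGAAG in 18.8%, 29.3% and 9.93%. The E box CACGTG occurred in 15.6%, 11.8% and 8.09%, and the MEIS motif TGACAG in 21.9%, 18.4% and 21.6%. The STAT pattern TTCNNNGAA occurred in 6.25%, 8.24% and 9.55%, and the heat shock pattern GAANNTTC in 4.69%, 7.13% and 9.04%. None of these patterns contains another, although the STAT and heat shock patterns can share bases. A match describes the letters of a window and nothing about a factor.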

How the data were processed

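Polyadenylated RNA of sorted bone marrow HSCs was sequenced in 9 libraries, 3 per group, and the replicate numbers are those of the labels. The submitters' processing notes name Trim Galore 0.6.2, STAR 2.6.1d, HTSeq 0.10.0, edgeR 3.24.3 and the build mm10, with no role for each. The authors deposited estimated counts per gene, not scaled between libraries, of which 43.8% to 51.0% per library are whole to within 1e-06, and TPM, scaled within each library. The deposited TPM columns sum to 937835 to 948801, so the listed genes do not make up a whole library.

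The estimated counts were rounded and fitted with edgeR 4.0.16 (R 4.3.3): quasi-likelihood test, all 9 libraries in 1 fit, TMM factors, default low-count filter (14461 of 19454 genes kept), Benjamini-Hochberg adjustment over all tested genes, threshold 0.05. The fit was tested on simulated counts with known changes. The rule for the members used group means of the deposited TPM. Alternatives were other scalings, DESeq2 1.42.0, limma 3.58.1 on log2(TPM + 1), no filter, a replicate block, other thresholds of the rule, and leaving out each library. With 3 against 3 libraries an exact permutation test cannot go below 0.10, so none was used.

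The members and the 29 functional and 10 marker lists were chosen with earlier results of these data known. Symbol patterns of 2 lists were corrected to the symbols of the deposited table, and gene families were formed after the members were seen. Genes described in full were the 12 farthest from a ratio of 1, the 8 most abundant, those in a list and those at the thresholds, with up to 3 other genes of a list by smallest p. Other named genes were chosen after their values were seen. Coordinates are gene bounds from GENCODE M21. Of the selected genes, 2 are not reported singly here or drawn gene by gene.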

Additional observations from a re-analysis of the deposited data

How the results depend on the processing

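With no rescaling the rule found 76 higher genes and 1 lower. TMM-scaled CPM in place of TPM gave 13 higher and 11 lower, and TPM rescaled by TMM factors 16 and 13. A minimum of 20 TPM gave 42 higher and 0 lower, a minimum of 5 TPM gave 126 higher, a 2-fold threshold 15 higher and 0 lower, and medians in place of means 2 lower. Leaving out 1 library gave 73 to 80 higher and 0 to 3 lower. The count of lower genes was 0 without spermidine replicate 1, 2 without spermidine replicate 2 or 3 or without inhibition replicate 2, and 3 without inhibition replicate 1. The cause was not tested, beyond the stricter or looser construction of the level and fold limits.

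Over all genes, total-count scaling turned 4213 higher and 4183 lower genes of spermidine against inhibition into 7711 and 1793, and limma on log2(TPM + 1) into 7112 and 1256. Against control, limma gave 2811 lower genes in place of 5363. The median log2 fold change of all tested genes moved from 0.027 to 0.288 against inhibition when TMM was replaced by total counts, and from 0.0597 to 0.323 against control. Of the 77 selected genes, Txndc11 changed direction against inhibition without the low-count filter (-0.0111) and when single libraries were left out (-0.0236 to 0.08597). The calls of the other selected genes against inhibition kept their direction in each fit. Rtn4 lost its call against inhibition with DESeq2 (log2 fold change 0.15), and Naa35 and Txndc11 gained one with total-count scaling (0.32 and 0.30) and limma (0.74 and 0.73). After the group mean of each gene was subtracted from log2 CPM, what remained in same-numbered libraries correlated at -0.0365 to 0.0526. These are not correlations of whole libraries. No shared deviation by number was seen. With 3 libraries per group, such values cannot settle whether the numbers pair libraries. A fit with the replicate block gave 4129 higher and 4132 lower genes against inhibition and changed the call of no selected gene. Low counts limit the least abundant genes, whose mean count goes down to 86.7 per library.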
